A study of Drosophila melanogaster with 40 samples.

Results

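The Drosophila genome carries many annotated copies of transposable elements, and the deposited table counts reads on each of them by its FlyBase identifier. The expressed copies described here are the 344 of 5416 such rows whose counts, summed over the 40 libraries, reached 400 or more. The whole table has 23932 rows. Because that sum was taken over both strains and all conditions, a copy read in a single strain could enter the set, and a difference between strains among the members is in part fixed by how they were chosen. The 3 members just inside the limit had 405, 406 and 406 counts, and the 3 copies just outside it had 398, 397 and 396. At the other end, 1453 copies had no count in any library.

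The libraries were poly(A) strand-specific RNA-seq from legs of male flies, in 10 groups of 4 pools, each pool holding 15 flies. The mutant, here called Hsp70-null, is the stock Hsp70– from Bloomington. On a w1118 background it carries the deletions Df(3R)Hsp70A and also Df(3R)Hsp70B, which remove the 6 Hsp70 genes in every cell. The other strain is w1118 (a VDRC stock). Both strains share the w1118 mutation, an allele of the eye pigment gene white, and they are 2 separately kept stocks, so the deletions cannot be told apart from any other difference between the stocks. Untreated flies of each strain were sampled at days 7, 23 and 47; a further group per strain ran for 2 h at day 7, and another was trained for 19 days (days 4 to 22) and sampled at day 23. Flies were anesthetized with ether. The labels name the pools as separate samples, and p-values measure the spread between such pools.

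The total count of a library lay between 21955858 and 30076080 at days 7 and 23 and between 35144736 and 39313671 at day 47. As a check of the strain labels, the 5 Hsp70 genes other than Hsp70Bb had 11 counts in 20 Hsp70-null libraries and 1748 counts in 20 w1118 libraries, while Hsp70Bb had 1283 counts in Hsp70-null and 1149 in w1118 and so did not separate the strains. Leg muscle markers were high in every group, with medians of the summed level of 10 markers of 22973, 21043 and 20547 counts scaled to library size (CPM) at days 7, 23 and 47 in Hsp70-null and of 26451, 18487 and 14627 CPM in w1118 legs. Other tissues were present too. The summed level of 32 testis markers stood at 3090 CPM in replicate 2 of Hsp70-null at day 7, against a group median of 219 CPM. This library and 2 further ones, both of w1118 and both exercised or trained, were over 5 times the median of all 40 libraries. The summed level of 12 accessory gland markers exceeded 500 CPM in 2 libraries, and that of 9 eye markers exceeded 2000 CPM in 3 libraries. The number of members called without these libraries is given beside the result or in the section on processing where it moved. Counts by class, family, position and chromosome are given with all libraries only, and were not repeated without these.

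Transposable elements fall into classes by how they move. LTR retrotransposons (roo, copia, gypsy and many others) and LINE-like retrotransposons (jockey, Doc, Cr1a) are copied through an RNA, whereas terminal inverted repeat (TIR) elements such as hoppel, pogo and S2 are cut out as DNA, and INE-1 is an old, short, non-autonomous Helitron found all over the genome. HeT-A, HeT-Tag and TART are LINE-like elements with a job: they transpose to chromosome ends and maintain the telomeres of Drosophila, which has no telomerase. Copies are held in check by small RNA pathways, siRNAs with AGO2 and Dcr-2 in somatic cells and piRNAs with Piwi-family proteins chiefly in gonads, and by heterochromatin. In poly(A) RNA, reads on a copy can come from a promoter of the copy itself or from a gene in which the copy lies, so the position of each copy is given below beside its level.

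Of the 344 members, 115 (33.4%) were LTR elements, 102 were INE-1 Helitrons, 68 were LINE elements, 57 were TIR or foldback elements and 2 could not be classed. By position in the BDGP6.54 annotation, 111 lay in an intron and 91 reached into an exon of a gene on the same strand, 32 lay in an intron and 6 in an exon of a gene on the opposite strand, and 104 lay outside genes. Families differed in the share of their copies that reached 400 counts: 23 of 35 copia copies (65.7%) and 10 of 26 HeT-A copies (38.5%) did, against 12 of 136 roo copies (8.82%), 22 of 303 hoppel copies (7.26%), 102 of 2234 INE-1 copies (4.57%) and 3 of 96 jockey copies (3.13%). The small chromosome 4 held 93 members among its 565 copies (16.5%), against 4.08% of copies on 3L and 6.53% on 2L. The members ranged from 20 to 66001 bp in length (median 965 bp) and from 405 to 107119 counts (median 1041). Among them, 36 overlap another member on the same strand in 16 nested sets, so that the same reads are counted more than once, and the 344 copies stand for 324 separate loci.

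Summed over all members, the level at days 7, 23 and 47 was 976 ± 127, 1181 ± 119 and 1228 ± 51.7 CPM in Hsp70-null legs, and 985 ± 52.7, 996 ± 28.1 and 1132 ± 54.2 CPM in w1118 legs (SD, n = 4 each). The libraries of the 2 strains overlapped at day 7, where Hsp70-null spanned 828 to 1138 CPM. With each nested set counted once, the day 47 means were 1066 CPM in Hsp70-null legs and 1011 CPM in w1118 legs. No test was made of these sums, since the members were chosen by their summed count.

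The first comparison asks how legs of the Hsp70-null stock differ from legs of w1118 at each age. Single copies stood apart by large factors in both directions, while the members as a set moved little: their median log2 fold change, Hsp70-null over w1118, was −0.26, 0.08 and −0.09 at days 7, 23 and 47, against 0.01, −0.01 and −0.02 over all 12939 features tested. By edgeR's quasi-likelihood test at an adjusted p under 0.05, at day 7 Hsp70-null had 38 members higher and 69 lower (31.1% of members, against 25.8% of all features, 15.8% higher and 9.99% lower), 49 were higher and 42 lower at day 23 (26.5%, against 17.8% of all features, 8.78% higher and 9.0% lower), and 44 were higher and 39 lower at day 47 (24.1%, against 19.4%, 9.93% higher and 9.49% lower). Without 8 libraries that carried testis, accessory gland or eye markers, a set chosen after seeing the data, 76 members passed at day 7, of which 75 were among the 107. That fit kept replicates 1 and 3 alone of untreated Hsp70-null at day 7, and the part of the smaller group in this lower count was not tested. Of the 344 members, 41, 39 and 38 passed the test with an absolute log2 fold change above 3 (over 8-fold) at the 3 ages, against 8.2%, 2.08% and 1.69% of all features. Whether each copy is present in the DNA of both stocks was not measured, so absence of a copy and absence of its RNA cannot be told apart.

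At all 3 ages 65 members differed with the same sign (18.9%, against 8.1% of all features, 4.02% higher and 4.08% lower). Of these, 33 members at 30 loci were higher in Hsp70-null, and they comprised 18 LTR elements, 11 LINE elements, 3 INE-1 copies and 1 TIR element, with 21 of them outside genes. The 32 that were lower, at 28 loci, comprised 19 LTR elements, 6 TIR elements, 5 LINE elements and 2 INE-1 copies, with 13 outside genes. Of the 33, 3 reached, and of the 32, 5 reached into an exon of a same-strand gene, a context that held 91 of all 344 members. The strain contrast was also made over all 344 members in treated flies. In exercised flies 48 were higher and 44 lower (26.7%, against 20.2% of all features, 8.95% higher and 11.2% lower). Their median log2 fold change was 0.09, against −0.26 in untreated flies of day 7. In trained flies 38 were higher and 40 lower (22.7%, against 15.6%, 8.41% higher and 7.17% lower), with a median of −0.08. How many of these calls fall on the 65 members was not counted.

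**Figure D1:**
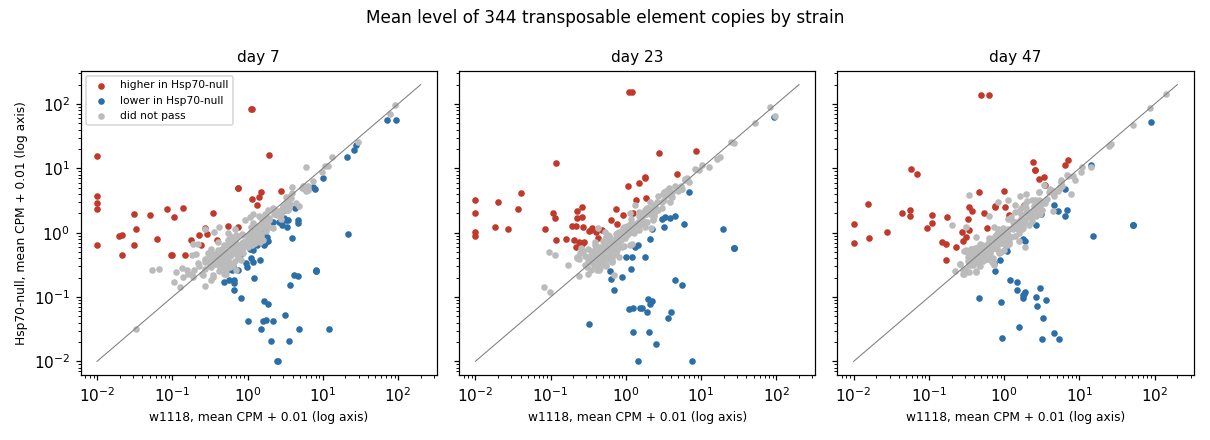
Mean level of each of the 344 copies (CPM + 0.01, log axes, n = 4 pools per mean) in Hsp70-null (vertical) against w1118 (horizontal), with 1 panel per age; red points were called higher in Hsp70-null, blue points lower and grey points neither. Most copies lie near the diagonal, while groups of red and blue points lie along the axes, where 1 strain had next to no reads.

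In 10 copies the reads came from 1 strain: every library of the one had at most 3 counts and every library of the other at least 10. Since the strain contrast itself chose them, their values are given as a description. With the limit at 1 count the number was 6, and at 10 counts it was 26. The 5 copies read in Hsp70-null and not in w1118 were 1 LTR element, 1 telomeric element, 1 INE-1 copy and 2 jockey copies, and the 5 read in w1118 and not in Hsp70-null were a BS, an S2, a pogo, a hoppel and a roo copy.

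Quasimodo{}3602 (FBti0061663), 659 bp of an LTR element outside genes on 2R at 4543280 to 4543938, had 1734 counts summed over 20 Hsp70-null libraries and 3 over 20 w1118 libraries. At day 7 it stood at 3.53, 2.27, 3.29 and 2.36 CPM in Hsp70-null legs and at 0 in all 4 w1118 libraries, so that it was at least 22.2-fold higher in Hsp70-null (against a floor of 3 counts per library, which covers counting error alone). The 4 mutant libraries were alike, and none overlapped w1118. HeT-Tag{}1568 (FBti0020449), a 78 bp telomeric fragment on chromosome 4 at 1274056 to 1274133, was at 3.84, 3.18, 4.33 and 3.65 CPM in Hsp70-null legs at day 7 and at 0 in w1118, at least 29.0-fold higher.

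INE-1{}3227 (FBti0061288) lies in an intron of nrm on 3L at 23036067 to 23036402, on the strand of that gene, which encodes a cell adhesion protein. It had 1120 counts over 20 Hsp70-null libraries and 0 over 20 w1118 libraries, and was at least 18.2-, 17.3- and 19.3-fold higher in Hsp70-null at days 7, 23 and 47. The gene around it did not follow: nrm had −0.19, 0.08 and 0.18 (log2 fold change) at the same ages. The 2 jockey copies, LINE elements, were lower in level. jockey{}817 (FBti0018987; 2R at 12819501 to 12824510) had 565 counts in Hsp70-null and 5 in w1118, and jockey{}1461 (FBti0019464), in an intron of PH4alphaEFB but on the opposite strand, had 486 counts in Hsp70-null and 1 in w1118.

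In the other direction, BS{}358 (FBti0019165), a LINE element on 2L at 13242015 to 13244341 inside an intron of the antisense RNA asRNA:CR45330, had 7 counts in 20 Hsp70-null libraries and 4646 in 20 w1118 libraries. At day 7 it was at 0, 0, 0.0433 and 0.043 CPM in Hsp70-null legs and at 17.0, 14.7, 8.19 and 8.10 CPM in w1118 legs. No Hsp70-null library came near the lowest w1118 library. At day 23, where Hsp70-null had no count, it was at least 65.6-fold higher in w1118. Within w1118 it fell with age, with a log2 fold change of −1.18 for day 47 over day 7 (adjusted p = 0.0215), and the antisense RNA around it was lower in Hsp70-null by log2 −3.27, −3.60 and −3.90 at the 3 ages.

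S2{}1603 (FBti0059664) and pogo{}916 (FBti0020027) are TIR elements on 3L. S2{}1603 had 16 counts in Hsp70-null and 1704 in w1118, and pogo{}916, which starts 37 bp from CG32485, had 3 in Hsp70-null and 1574 in w1118; at day 7 pogo{}916 was at 0 in all 4 Hsp70-null libraries and at 2.84, 2.46, 2.35 and 2.39 CPM in w1118 legs, at least 19.1-fold higher in w1118. FBti0020438, a hoppel copy on chromosome 4 in an intron of asRNA:CR44030, had 14 counts in Hsp70-null and 813 in w1118, and its surrounding antisense RNA was itself lower in Hsp70-null by log2 −8.14, −7.10 and −6.19. The LTR element roo{}366 (FBti0019173), opposite an intron of CenG1A on 2L, had 6 counts in Hsp70-null and 813 in w1118. These 5 copies belong to 5 families and lie on 2L, 3L and chromosome 4.

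**Figure D2:**
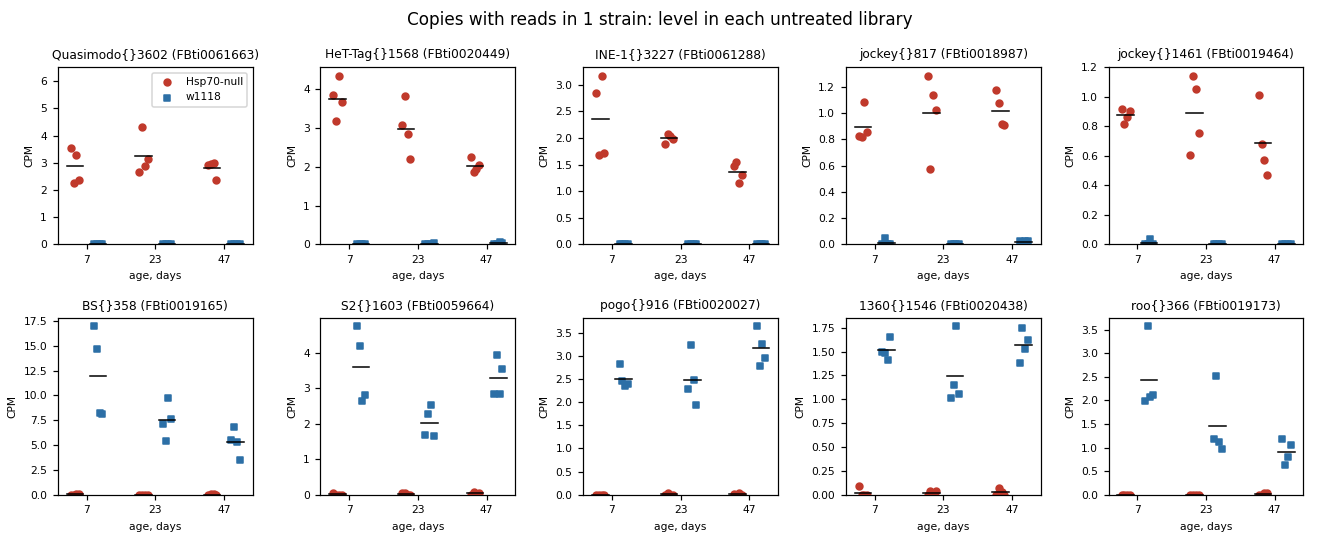
Level (CPM) of the 10 copies read in 1 strain at days 7, 23 and 47, 1 panel per copy; red circles are the 4 Hsp70-null pools, blue squares the 4 w1118 pools and lines the group means. In each panel 1 strain stays at or next to 0 at all 3 ages.

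The 12 members with the largest mean strain difference over the 3 ages, 6 in each direction, comprised 7 of those 10 copies, TART-B{}1567, the nested pair gypsy{}615 and accord2{}1996, Burdock{}4109 and roo{}311. The nested pair had the most reads among them. gypsy{}615 (FBti0019898), an LTR element on 2R at 5049217 to 5056682, sits inside accord2{}1996 (FBti0060057; 5046069 to 5061584), and the 2 rows have 72268 and 72354 counts, almost all of them the same reads. Its level at day 7 was 76.3, 61.3, 104 and 96.4 CPM in Hsp70-null legs and 0.973, 1.35, 1.02 and 1.10 CPM in w1118 legs. At day 47 it was 138, 131, 147 and 140 CPM in Hsp70-null legs and 0.567, 0.267, 0.546 and 0.525 CPM in w1118 legs. The strains lay far apart at both ages, and the gap widened: the log2 fold change was 6.25 ± 0.23 (SE) at day 7, 7.09 ± 0.23 at day 23 and 8.18 ± 0.25 at day 47 (adjusted p = 2.42e-20, 2.99e-21 and 1.78e-22).

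Burdock{}4109 (FBti0062170) is a 141 bp piece of an LTR element in the exon of asRNA:CR45600 on 3R at 15139418 to 15139558. At day 7 it was at 0, 0, 0 and 0.0859 CPM in Hsp70-null legs and at 4.78, 4.55, 4.47 and 5.20 CPM in w1118 legs (adjusted p = 2.97e-08; 1.81e-07 at day 23 and 9.94e-09 at day 47). Its host RNA moved with it, by log2 −7.15, −6.34 and −7.12. roo{}311 (FBti0019126), a full-length roo on 2L at 5827763 to 5836712, opposite an intron of the neuropeptide receptor gene TrissinR, was at 0.0872, 0, 0.0867 and 0 CPM in Hsp70-null legs and at 3.36, 3.95, 2.90 and 2.44 CPM in w1118 legs at day 7, with log2 fold changes of −6.04, −6.42 and −5.39 (adjusted p = 5.44e-09, 1.65e-09 and 1.11e-08).

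In the telomeric family most members that differed were higher in Hsp70-null. Of its 17 members (10 HeT-A, the rest HeT-Tag and TART), Hsp70-null had 7 higher and 0 lower at day 7, 9 were higher and 2 lower at day 23, and 7 were higher and 0 lower at day 47. The called share was 41.2%, 64.7% and 41.2% of these members, against 25.8%, 17.8% and 19.4% of all features. The share higher was 41.2%, 52.9% and 41.2%, against 15.8%, 8.78% and 9.93%. Their summed level was 59.0, 50.8, 58.8 and 54.5 CPM in Hsp70-null legs at day 7 and 14.7, 14.6, 17.0 and 15.8 CPM in w1118 legs, so every mutant pool lay above every w1118 pool. At days 23 and 47 the sums were 58.9 ± 4.87 and 54.5 ± 8.58 CPM in Hsp70-null legs, and 18.9 ± 2.56 and 21.2 ± 2.90 CPM in w1118 legs (SD, n = 4). The family was picked out here after its values were seen, and its members share sequence, so reads may be shared between copies.

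Within the family the copies differed. TART-B{}1567 (FBti0020448), 468 bp on chromosome 4 at 1274141 to 1274608 and a neighbour of HeT-Tag{}1568, was at 8.70, 7.37, 7.50 and 8.81 CPM in Hsp70-null legs at day 47 and at 0.0493, 0.0971, 0.0682 and 0.0228 CPM in w1118 legs (log2 fold change 6.99 ± 0.48, adjusted p = 1.26e-11). HeT-A{}6268, a 5917 bp copy on chromosome 4 at 1301834 to 1307750, was at 17.3, 13.7, 18.9 and 14.4 CPM in Hsp70-null legs at day 7 and at 2.15, 1.07, 2.55 and 1.93 CPM in w1118 legs (3.06 ± 0.30, 2.2e-09), again without overlap. HeT-A{}5504, on X at 114047 to 116407, had strain log2 fold changes of 6.25, 6.94 and 7.54 at days 7, 23 and 47. At day 47 it was at 16.7, 9.18, 6.53 and 6.31 CPM in Hsp70-null legs and at 0.0493, 0.0728, 0.0227 and 0.0456 CPM in w1118 legs, and in Hsp70-null it was higher at that age than at day 7 (log2 change 2.30 ± 0.63, adjusted p = 0.00703). The shortest member, HeT-A{}6281 (FBti0114507; 20 bp on chromosome 4), went the other way and was lower in Hsp70-null at day 23 (−1.15, adjusted p = 0.00551), with −0.45 and −0.70 at days 7 and 47. TART-A{}3901, 700 bp inside an exon of nxf2, was higher by 1.18, 1.33 and 1.71, close to the values of nxf2 itself (1.33, 1.45 and 1.53), and its reads made up 28.5% of those of the gene.

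Copies of roo, an LTR element, were lower in Hsp70-null where they differed. Of 12 roo members, 0 were higher and 7, 8 and 7 were lower in Hsp70-null at days 7, 23 and 47, with median log2 fold changes of −3.33, −2.98 and −2.19. The share of roo members that was lower was 58.3%, 66.7% and 58.3%, against 9.99%, 9.0% and 9.49% of all features. Examples of the lower copies are roo{}1665 on 2R (−4.46, −5.24 and −4.11) and roo{}1598 (−4.26, −4.68 and −3.14). Most of the family's summed level, however, lay on a copy that did not pass. roo{}339 (FBti0019148), opposite an intron of dpr2 on 2L at 10946999 to 10956155, had the highest count of all members, and at day 7 it held 86.5% to 97.7% of the roo sum in Hsp70-null libraries and 53.3% to 84.3% in w1118 libraries. Its level at day 7 was 23.3, 47.9, 124 and 82.5 CPM in Hsp70-null legs and 34.7, 98.5, 70.3 and 108 CPM in w1118 legs. The pools of the 2 strains overlapped throughout, and its strain difference did not pass the test at any age (adjusted p = 0.84, 0.48 and 0.98). The summed roo level therefore overlapped as well, at 73.0 ± 43.6 CPM in Hsp70-null legs and 99.8 ± 29.2 CPM in w1118 legs at day 7 (SD, n = 4).

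Other families split by copy. Among 23 copia members 5 were higher and 3 lower at day 7, and among 5 members of 3S18 there were 3 higher and 1 lower at each age. Of 22 hoppel members, 1 was higher and 6 were lower at day 7. The called shares at day 7 were 34.8% of copia, 80% of 3S18 and 31.8% of hoppel members, against 25.8% of all features. At days 23 and 47 the hoppel share was 13.6% and 22.7%, against 17.8% and 19.4%, so hoppel stayed near the background. A nested set in an intron of Ir40a, an ionotropic receptor gene on 2L, shows the largest copia difference: copia{}539 (22201408 to 22206551, inside 2 Cr1a copies that count the same reads) was at 0.131, 0.454, 0.217 and 0.172 CPM in Hsp70-null legs at day 7 and at 6.65, 7.29, 7.83 and 10.7 CPM in w1118 legs. Its log2 fold changes were −5.04 ± 0.53, −5.57 ± 0.51 and −5.30 ± 0.49 (adjusted p = 7.3e-09, 3.3e-10 and 4.1e-10), while Ir40a itself had −0.47, −0.88 and 0.25. Outside that intron the copia sum ran the other way, at 16.4, 9.31, 11.4 and 9.92 CPM in Hsp70-null legs at day 7 and 5.51, 5.90, 5.52 and 8.15 CPM in w1118 legs. Among LINE elements, G3{}546 in CR12628 on 2L was at 0.698, 1.09, 0.78 and 1.20 CPM in Hsp70-null legs and 22.2, 26.6, 19.4 and 17.9 CPM in w1118 legs at day 7 (−4.51, −4.13 and −4.07 at the 3 ages, with CR12628 at −5.49, −5.23 and −6.08).

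**Figure D3:**
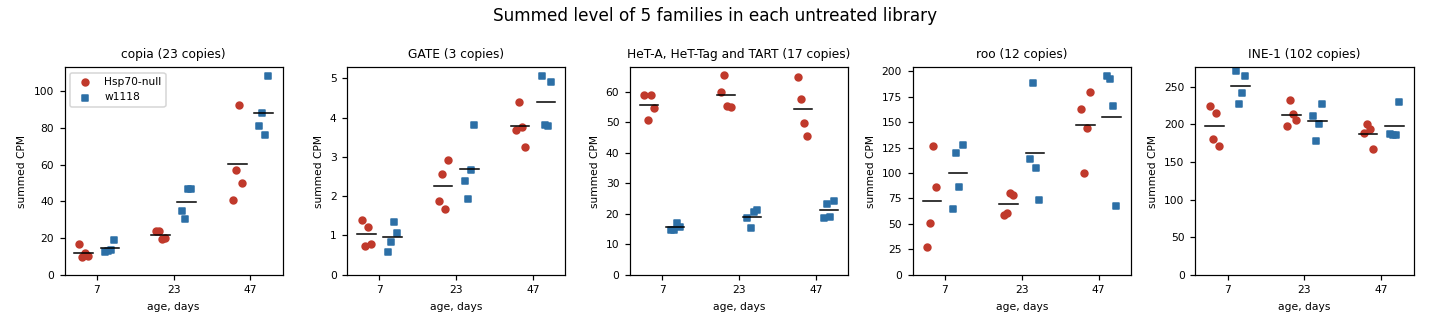
Summed level (CPM) of the members of 5 families at days 7, 23 and 47 in each pool, Hsp70-null in red and w1118 in blue, lines at the means. The 17 telomeric members separate the strains at every age, the copia and GATE sums are higher at day 47 than at day 7 in both strains, and the roo and INE-1 sums overlap between strains at day 47.

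Copies on the strand of the gene they lie in were called between strains at shares below or near those of all features. At days 7, 23 and 47 these were 24.3%, 16.2% and 12.6% of the 111 in introns and 24.2%, 13.2% and 13.2% of the 91 reaching into exons, against 25.8%, 17.8% and 19.4% of all features. Of the 104 copies outside genes 41.3%, 41.3% and 36.5% were called, and of the 32 in introns of a gene on the opposite strand 37.5%, 50% and 53.1%. No test compared these contexts. At day 7 the same-strand intronic copies had a median strain log2 fold change of −0.50, with 7 higher and 20 lower in Hsp70-null (18% lower, against 9.99% of all features). Of the 102 INE-1 members 5 were higher and 17 lower at that age (median −0.40), 21.6% in both directions and 16.7% lower. At the later ages the INE-1 counts were smaller, with 5 higher and 3 lower at day 23 (7.84%), and 4 higher and 3 lower at day 47 (6.86%), both below the share of all features. The INE-1 sums were 225, 180, 215 and 171 CPM in Hsp70-null legs and 271, 226, 242 and 265 CPM in w1118 legs at day 7, with no overlap, and 188, 200, 194 and 167 CPM in Hsp70-null legs and 188, 186, 186 and 229 CPM in w1118 legs at day 47, with overlap. In exercised flies of day 7 the strains overlapped too. There the INE-1 sums were 268, 185, 196 and 217 CPM in Hsp70-null legs and 200, 207, 195 and 222 CPM in w1118 legs. Chromosome 4, rich in INE-1, had 6 members higher and 22 lower at day 7 (30.1% of its 93 members, against 25.8%), and 7 higher and 4 lower at day 47 (11.8%, against 19.4%).

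For copies lying in genes the strain difference can be set beside that of the gene. Over the 67 copies with at least 90% of their length in exons of a tested same-strand gene, the log2 fold change of the copy and that of its gene had a Pearson r of 0.88, 0.88 and 0.93 at days 7, 23 and 47, across copies that share reads with their genes. They differed by less than 0.5 in 52, 58 and 58 of the 67, and by more than 3 in 0. For 110 intronic copies r was 0.43, 0.59 and 0.49, and 8, 6 and 8 copies differed from their gene by more than 3. These correlations are across copies, which are not independent replicates, and no p is given for them.

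**Figure D4:**
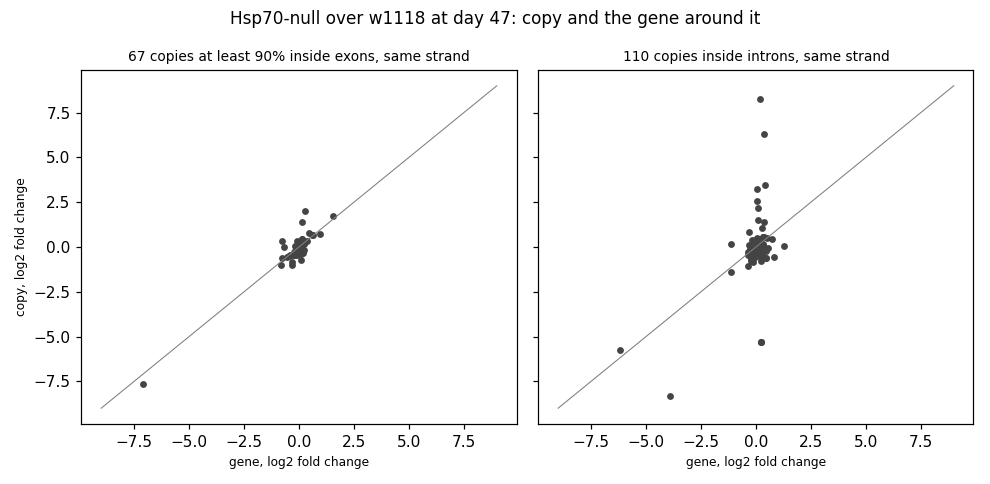
Strain log2 fold change (Hsp70-null over w1118) at day 47 of the gene (horizontal) and of the copy in it (vertical), for 67 copies at least 90% inside same-strand exons (left) and 110 copies in same-strand introns (right). Exonic copies lie along the diagonal, and 8 intronic copies lie more than 3 log2 units away from their gene.

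The members with the most CPM per kilobase were short exonic pieces. blood{}5207 (FBti0063268), 37 bp in an exon of the translation helicase gene eIF4A, averaged 95.7 ± 5.97, 88.4 ± 17.7 and 86.2 ± 4.48 CPM in Hsp70-null legs at days 7, 23 and 47, and 89.7 ± 6.01, 83.4 ± 12.3 and 85.6 ± 4.50 CPM in w1118 legs (SD, n = 4), and did not pass the test between strains at any age. McClintock{}2501 (FBti0060562), 89 bp in an exon of CG3164 with the antisense RNA asRNA:CR44969 on the other strand, was at 66.3, 49.6, 54.2 and 56.2 CPM in Hsp70-null legs and 111, 97.9, 77.9 and 83.4 CPM in w1118 legs at day 7. It was lower in Hsp70-null without overlap at all 3 ages (−0.71 ± 0.10, −0.58 ± 0.10 and −0.79 ± 0.10; adjusted p = 5.1e-06, 9e-05 and 6.31e-07). Rt1a{}5155 in Miox and INE-1{}6127 in CG42748 did not pass the test between strains, and INE-1{}5275 in Idgf4, a secreted chitinase-like protein gene, differed at day 47 alone (0.65, adjusted p = 0.000981), as did Idgf4 itself by 0.63.

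A few exonic copies did not follow their gene, and these were chosen after their values were seen. FBti0019309, a hoppel copy in Sec20, a vesicle fusion protein gene, was at 1.00, 0.772, 0.693 and 0.601 CPM in Hsp70-null legs and 0.162, 0.0929, 0.235 and 0.184 CPM in w1118 legs at day 7. Its log2 fold changes were 2.15, 2.33 and 2.00 where the gene had 0.52, 0.50 and 0.25. INE-1{}4550 in alpha-Cat, the adherens junction catenin, had 1.49, 1.93 and 1.40 where the gene had 0.19, 0.19 and 0.14. Both copies lie on the strand of their gene.

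The second comparison asks how the copies change with age in each strain. More members rose than fell between days 7 and 47. In Hsp70-null 65 rose (18.9% of members) and 17 fell (4.94%), against 28.9% of all features called, 14.0% higher and 14.9% lower. In w1118 60 rose (17.4%) and 46 fell (13.4%), against 37.6%, 19.2% higher and 18.5% lower. The share that fell was below that of all features in both strains. The share that rose was above it in Hsp70-null and below it in w1118. The median log2 fold change of the members was 0.22 in Hsp70-null and 0.01 in w1118, against −0.02 in Hsp70-null and 0.07 in w1118 over all features. Without the libraries with testis, accessory gland or eye markers 54 members passed in Hsp70-null. Replicates 1 and 3 alone of day 7 were left in that fit, and the part of the smaller group in this count was not tested. Of 115 LTR elements 32 rose and 4 fell in Hsp70-null (27.8% up, median 0.66), and 36 rose and 6 fell in w1118 (31.3% up, median 0.56). Of 68 LINE elements 20 rose and 4 fell in Hsp70-null (29.4% up), and 14 rose and 7 fell in w1118 (20.6% up). Among INE-1 copies 5 rose and 6 fell in Hsp70-null (10.8%, against 28.9% of all features), and 6 rose and 26 fell in w1118 (31.4%, against 37.6%). The 26 falls rest on the same w1118 libraries of day 7 as the strain difference of INE-1 at that age, and are not separate evidence of it. No test compared the 2 strains over the class. In whole legs, fewer cells of a type and less RNA per cell cannot be told apart.

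In both strains 40 members at 35 loci rose (11.6% of members, against 10.1% of all features) and 11 fell (3.2%, against 9.31%). The share that rose was near that of all features, and the share that fell was lower. Another 3 moved in opposite directions (0.872%, against 0.185%). These 3 stand for 2 loci, the nested pair on 2R and TART-B{}1567, which had no reads in w1118 at day 7. The 40 included 11 copia, 5 Cr1a, 4 INE-1 and 3 GATE copies, and 19 of them lay outside genes. Among the 11 that fell, 6 reached into an exon of a same-strand gene. Tissue markers moved with age as well: the median of the summed level of 8 gut markers at days 7, 23 and 47 was 426, 4191 and 5071 CPM in Hsp70-null legs and 268, 2482 and 15558 CPM in w1118 legs. Their part in the change of the copies was not tested. The single steps of the time course had fewer calls, with 29 up and 3 down between days 7 and 23 in Hsp70-null (9.3% of members, against 17.3%, 7.37% up and 9.89% down) and 23 up and 11 down in w1118 (9.88%, against 11.1%, 4.84% up and 6.21% down). There were 6 up and 3 down between days 23 and 47 in Hsp70-null (2.62% of members, against 3.6%, 1.64% up and 1.96% down) and 17 up and 7 down in w1118 (6.98%, against 13.4%, 6.07% up and 7.31% down). The 29 and 3 of the first step in Hsp70-null came to 15 calls in all without replicate 2 of day 7, the library with the testis markers, to 46 without replicate 3 of day 7, to 15 without replicate 2 of day 23 and to 19 without replicate 4 of day 23. The 9 calls of the second step in Hsp70-null came to 5 without replicate 3 of day 23 or without replicate 4 of day 47.

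**Figure D5:**
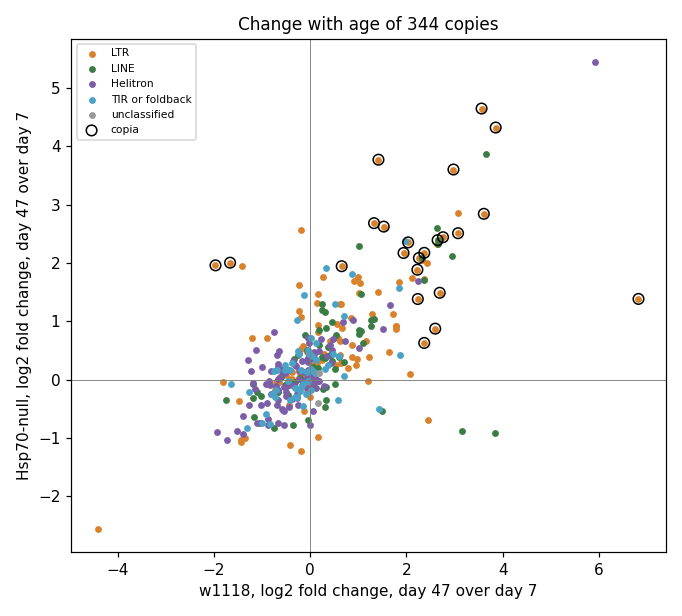
Log2 fold change of each member for day 47 over day 7 in Hsp70-null (vertical) and w1118 (horizontal), coloured by element class, with copia copies ringed. Most ringed points lie in the upper right, where copies were higher at day 47 in both strains.

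The copia family of LTR elements had the most members among those that rose. Of 23 members 13 rose and 0 fell in Hsp70-null, and 14 rose and 0 fell in w1118, with median log2 fold changes of 2.17 in Hsp70-null and 2.37 in w1118. The copia share that rose was 56.5% in Hsp70-null, against 14.0% of all features (14.9% fell). In w1118 it was 60.9%, against 19.2% of all features (18.5% fell). The summed level was 16.6, 9.76, 11.7 and 10.1 CPM at day 7, 23.9, 23.8, 19.3 and 20.2 CPM at day 23, and 40.8, 57.0, 92.5 and 50.2 CPM at day 47 in Hsp70-null. In w1118 the summed level was 12.2, 13.2, 13.4 and 18.9 CPM at day 7, 34.8, 30.3, 46.7 and 46.9 CPM at day 23, and 81.0, 88.4, 76.0 and 108 CPM at day 47. In each w1118 pool of day 7 most of it lay on copia{}539 in the Ir40a intron, which rose by log2 2.65 in w1118 and 2.39 in Hsp70-null. Of the 22 copia members elsewhere, 12 rose and 0 fell in Hsp70-null (54.5% up, against 14.0% of all features). In w1118, 13 of them rose and 0 fell (59.1% up, against 19.2%). How reads that match several copies were handled is not given, so copia copies may share reads. In the sum over all copia members, no pool of one age overlapped a pool of another age within either strain.

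copia{}399 (FBti0019193), full length in an intron of the cadherin gene CadN2 on 2L at 17819978 to 17825122, was at 3.70, 3.71, 4.26 and 4.48 CPM at day 47 in Hsp70-null against 0.131, 0.227, 0.390 and 0.043 CPM at day 7, a log2 change of 4.32 ± 0.60 (adjusted p = 1.81e-06). In w1118 it was at 1.73, 2.31, 1.30 and 2.40 CPM at day 47 against 0.203, 0.139, 0.0392 and 0.138 CPM at day 7 (3.85 ± 0.60, 5.91e-06). CadN2 itself had −0.76 in Hsp70-null and −1.16 in w1118. copia{}387 (FBti0019183), outside genes on 2L at 16141218 to 16146366, rose by 4.65 ± 0.57 in Hsp70-null (1.87e-07) and by 3.56 ± 0.52 in w1118 (2.58e-06). Both copies were separated by age in every pool.

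copia{}131 (FBti0019059), in an intron of the adenylyl cyclase gene rut on X, was patchy. At day 47 it was at 1.49, 0.635, 1.38 and 1.07 CPM in Hsp70-null legs, and at 4.02, 2.35, 0.296 and 0.251 CPM in w1118 legs. At day 7 it was at 0.218, 1.27, 0.260 and 0 CPM in Hsp70-null legs, and at 0, 0, 0 and 0.046 CPM in w1118 legs. Its rise passed the test in w1118 (adjusted p = 0.00306) and not in Hsp70-null (0.417), and the difference between the strains in this change did not pass (0.152).

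Other elements rose in both strains. The 3 GATE copies, LTR elements, had a summed level of 1.40, 0.726, 1.21 and 0.773 CPM at day 7, 1.89, 2.57, 1.66 and 2.92 CPM at day 23 and 3.68, 4.39, 3.76 and 3.26 CPM at day 47 in Hsp70-null. In w1118 the means were 0.948 ± 0.325, 2.70 ± 0.801 and 4.39 ± 0.681 CPM at the 3 ages (SD, n = 4). GATE{}2924 lies opposite an intron of AGO3, a piRNA effector gene, and rose by 2.00 ± 0.31 in Hsp70-null (adjusted p = 9.74e-06) and by 2.42 ± 0.31 in w1118 (3.1e-07). It is nested in Stalker4{}2894, which rose by 1.73 in Hsp70-null and 2.36 in w1118. GATE{}1824 is nested in gypsy10{}4606 and HMS-Beagle{}4605. Both GATE copies thus share reads with copies of other families. transib3{}1538, a TIR element in an exon of unc-13, a synaptic vesicle priming gene on chromosome 4, rose by 2.38 ± 0.28 in Hsp70-null (7.26e-08) and 1.97 ± 0.27 in w1118 (8.78e-07), while unc-13 had 0.24 in Hsp70-null and −0.06 in w1118.

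INE-1{}3208 (FBti0061269) was an exonic case in which the host RNA moved too. It was at 0.881, 1.10, 1.23 and 1.36 CPM at day 47 in Hsp70-null and at 1.87, 1.60, 1.36 and 1.53 CPM in w1118 legs, and next to 0 at day 7 in both (adjusted p = 3.52e-05 in Hsp70-null and 7.43e-06 in w1118). The long noncoding RNA lncRNA:CR42646, of whose counts it holds 20.7%, rose by 4.79 in Hsp70-null and 6.95 in w1118. Ivk{}4584 (FBti0062645), 44 bp in an exon of AANATL3, passed narrowly (adjusted p = 0.0466 in Hsp70-null and 0.0495 in w1118), and its call in Hsp70-null was lost under several alternatives.

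Falls with age were fewer. rover{}1275 (FBti0019343), an LTR element on 3R at 8906389 to 8913800, opposite an intron of the junction gene pyd, fell in both strains. At day 47 it was at 0.203, 0.342, 0.653 and 0.287 CPM in Hsp70-null legs against 2.70, 2.18, 2.30 and 1.63 CPM at day 7. In w1118 it was at 0.0493, 0.146, 0.091 and 0.342 CPM at day 47 against 3.20, 4.32, 2.98 and 3.18 CPM at day 7. The log2 changes were −2.56 ± 0.36 in Hsp70-null (adjusted p = 2.63e-06) and −4.40 ± 0.40 in w1118 (2.11e-10), and their difference passed the interaction test (1.85 ± 0.50, adjusted p = 0.0484; 1.64% of all features did).

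INE-1{}1919 (FBti0059980) in an exon of the GABA transporter gene Gat fell with its gene: −1.04 in Hsp70-null (adjusted p = 0.0442) and −1.73 in w1118 (0.000863), where Gat had −1.07 in Hsp70-null and −1.91 in w1118. roo{}34 (FBti0019553), opposite an intron of the phosphodiesterase gene dnc, had −1.04 in Hsp70-null (0.0168) and −1.44 in w1118 (0.000721). The calls of INE-1{}1919 and roo{}34 in Hsp70-null were lost under some alternatives. flea{}152 (FBti0019077), in an intron of the homeobox gene OdsH, fell in Hsp70-null (−1.23, 0.00288) and had −0.19 in w1118. In w1118, INE-1{}1753 (FBti0059814) in Cda5 fell by 1.94 on the log2 scale (0.000875) with its gene at −1.40, and invader2{}238 (FBti0019710) fell by 1.81 (6.46e-05), where Hsp70-null had −0.90 for INE-1{}1753 and −0.05 for invader2{}238.

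Whether the change with age differed between strains was tested by the interaction of strain and age. For day 47 over day 7 it passed in 9 members (2.62%, against 1.64% of all features), which are 7 loci since 2 nested pairs are among them. The lowest p was that of the pair on 2R: gypsy{}615 rose in Hsp70-null by 0.72 ± 0.17 (adjusted p = 0.00236) and fell in w1118 by 1.21 on the log2 scale (8.78e-05), an interaction of 1.93 ± 0.29 (0.000144). TART-B{}1567 fell in Hsp70-null, with a log2 change of −0.92 (0.0484); its level in w1118 was 0 at day 7 and a few reads at day 47, too few for a fold. For day 23 over day 7, TART-B{}1567 was the 1 member that passed (0.232% of all features did). The nested pair on 2R passed in all 26 alternatives tried, TART-B{}1567 in 18 of 25, and the other 6 in 3 to 10 each, and leaving out any 1 of 13 libraries among the 16 compared brought the count to between 2 and 4. INE-1{}5341, in an intron of CG1674 on chromosome 4, was at 1.08, 1.39, 1.33 and 0.808 CPM at day 47 in Hsp70-null against 0.916, 0.545, 1.08 and 0.687 CPM at day 7. In w1118 it was at 1.92, 1.77, 1.43 and 2.03 CPM at day 47 against 4.94, 2.09, 3.76 and 4.74 CPM at day 7. Its interaction was 1.63 ± 0.44 (0.0484).

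The third comparison asks whether exercise moved the copies. By edgeR 0 of 344 members passed after 2 h of exercise at day 7 in Hsp70-null (0.0464% of all features did) and 0 in w1118 (0.402%). At an unadjusted p under 0.05 there were 18 in Hsp70-null and 44 in w1118, and DESeq2 called 0 in Hsp70-null and 2 in w1118. After 19 days of training, 0 members passed in Hsp70-null (0.0464%) and 0 in w1118 (0.0%), with 7 in Hsp70-null and 18 in w1118 at an unadjusted p under 0.05 and 0 in both by DESeq2. The members' median log2 fold change for exercise in w1118 was −0.25, against 0.00 over all features.

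The genes that silence transposable elements were read from a list of 52, of which 48 were found and 45 tested. Between strains Hsp70-null had 6 higher and 0 lower at day 7 (13.3% of those tested, against 25.8% of all features), 4 were higher and 3 lower at day 23 (15.6%, against 17.8%), and 4 were higher and 4 lower at day 47 (17.8%, against 19.4%). With all libraries in the fit these shares lay below the background at each age, with medians of 0.11, 0.00 and 0.01 against 0.01, −0.01 and −0.02 over all features. nxf2, a variant export factor that acts with Piwi and Panoramix in silencing transcription, was higher at all 3 ages, with 4.55 ± 0.408, 6.43 ± 0.770 and 7.76 ± 0.464 CPM in Hsp70-null legs and 1.80 ± 0.493, 2.35 ± 0.329 and 2.68 ± 0.0836 CPM in w1118 legs at days 7, 23 and 47 (SD, n = 4). The count of nxf2 is not independent of the telomeric members, since a TART-A copy lies inside an exon of this gene. Reads of that copy make up part of those of nxf2, and they may be shared with other telomeric copies. Whether nxf2 differs between strains without these reads was not tested. del, a partner of Rhino in piRNA cluster transcription, was higher by 0.59, 0.59 and 0.43. Hen1, which methylates small RNAs, was higher at day 7 (0.56, adjusted p = 0.0186), as was mael (1.53, 0.0338). Among those lower, AGO3 had −2.15 (0.0102) at day 23 and −1.79 (0.0286) at day 47, HP4, a heterochromatin protein, had −0.59 and −0.95, qin had −0.55 and −0.68, and aub had −1.38 (0.0376) at day 47.

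With age 10 genes of the list rose and 4 fell in Hsp70-null (31.1% of those tested, against 28.9% of all features), and 10 rose and 3 fell in w1118 (28.9%, against 37.6%), so the shares were near or below the background. Those that rose in both included spn-E, a piRNA pathway helicase (1.20 in Hsp70-null and 1.16 in w1118), rhi, which marks piRNA clusters (1.18 in Hsp70-null and 1.30 in w1118), nxf2 (0.77 in Hsp70-null and 0.57 in w1118), and Dcr-2, the siRNA-producing nuclease (0.38 in Hsp70-null and 0.62 in w1118). papi and Gasz, which act in piRNA biogenesis at mitochondria, fell in both (−0.50 and −0.35 in Hsp70-null, −0.44 and −0.50 in w1118). AGO3 (−1.56, adjusted p = 0.0447) and aub (−1.45, 0.0232), piRNA effectors of the germline, fell in Hsp70-null. Without the 3 libraries with testis markers the changes in Hsp70-null were 0.17 for AGO3 (0.828), −0.41 for aub (0.491) and 0.29 for Dcr-2 (0.147), so that all 3 calls were lost. The rise of spn-E was then 1.93 (1.73e-07) and that of rhi 1.65 (0.00499), and 10 genes of the list rose and 2 fell. Without them mael had 0.45 at day 7 between strains (0.476), Hen1 had 0.38 (0.117), and AGO3 was lower at that age too (−2.68, 5.98e-05). Of 45 genes tested, 4 were then higher and 1 was lower at day 7, 9 were higher and 4 lower at day 23, and 7 were higher and 4 lower at day 47. The share of all features called in that fit is not given here. Whether the shares of the list stayed below the background without those libraries is therefore not shown. The strain difference of AGO3 at days 23 and 47 (−2.14 and −1.79) and that of aub at day 47 (−1.39, 0.00474) were past the threshold without those libraries as well.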

How the data were processed

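RNA was measured in legs of male flies, in 40 strand-specific poly(A) libraries (10 groups of 4 pools of 15 flies). The authors deposited 1 table of raw counts per gene or annotated transposable element copy, whose unit was checked on the values. HISAT2 2.1.0, kallisto 0.44.0 and the build BDGP6 are named per the submitters' processing notes; how reads that match several copies were handled is not given in the sources used here. The table has no column that belongs to no sample.

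Members are rows with the transposable_element biotype and an FBti identifier with a summed count of at least 400; 162 rows of that biotype with other identifiers were not used. Positions, strands and surrounding genes come from Ensembl release 115 (BDGP6.54), matched by identifier for 5414 of the 5416 copies and all 344 members; class follows from the family name. For copies wholly inside exons of 1 gene, the read density of the copy was a median of 0.00167 times that of a gene on the opposite strand (46 copies) and 0.432 times that of a gene on the same strand (77 copies), so counting used strand. Copies nested in one another share reads.

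All 12939 features left by filterByExpr, the 344 members among them, were fitted together in edgeR 4.0.16 (R 4.3.3) with TMM scaling, 1 mean per group and 30 residual degrees of freedom. The quasi-likelihood F test gave p-values that were adjusted (Benjamini-Hochberg) within each of 17 comparisons over all features, with a threshold of 0.05. Each SE was taken as |log2 fold change| over the root of F. CPM uses TMM-scaled library sizes. A copy counted as read in 1 strain when every library of the other had at most 3 counts and every library of its own at least 10. Floors and intervals cover counting error only. The tests were checked on simulated data.

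The text names, by rule, the copies read in 1 strain, the 6 members in each direction with the largest mean strain difference called at all 3 ages, the 4 in each direction with the largest change from day 7 to day 47 in each strain, the 3 lowest p in the strain by age interaction, the 6 highest CPM per kilobase, genes around them, and at most 4 called silencing genes in each direction per comparison. HeT-A, roo, copia, GATE, G3, transib3, FBti0019309 and INE-1{}4550 copies beyond that rule were chosen after their values were seen. Members and lists (silencing genes, markers of leg muscle, testis, accessory gland, gut, eye and fat body) were chosen with earlier results of these data known. The summed level of 5 fat body markers at days 7, 23 and 47 had medians of 3483, 6123 and 4893 CPM in Hsp70-null and 3843, 6394 and 5574 CPM in w1118. Alternatives were RLE scaling, other filters, DESeq2 1.42.0, fits of the compared groups alone, robust estimation, a replicate block, thinned day 47 libraries and left-out libraries. No 2 replicates agreed within sampling noise (lowest chi-square per degree of freedom 17.8 in 60 pairs). No sequence is printed, as no file used here holds the copies' letters.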

Additional observations from a re-analysis of the deposited data

Results flagged for a closer look

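In 153 groups of 4 pools of the named members, a pool was marked where its gap to its nearest neighbour, over the range of its group, exceeded Dixon's 95% critical value. Chance alone marks about 1 in 20 groups, and 18 were marked. In Hsp70-null these were Quasimodo{}3602 in replicate 4 of day 47 (2.37 CPM), jockey{}817 in replicate 3 of day 7 (1.08 CPM), INE-1{}3208 in replicate 2 of day 23 (0.214 CPM), copia{}387 in replicate 2 of day 7 (0.227 CPM) and Ivk{}4584 in replicate 4 of day 7 (1.46 CPM). In w1118 at day 7 they were roo{}366 (3.58 CPM) and rover{}1275 (4.32 CPM), both in replicate 2, and Ivk{}4584 (0.966 CPM) and HeT-A{}6281 (1.43 CPM), both in replicate 4. In w1118 at day 23, replicate 2 was apart for roo{}366 (2.51 CPM), copia{}131 (2.39 CPM), blood{}5207 (101.7 CPM) and Rt1a{}5155 (19.2 CPM), and replicate 4 for Burdock{}4109 (4.73 CPM) and roo{}311 (3.36 CPM). In w1118 at day 47 they were roo{}311 in replicate 1 (4.91 CPM), gypsy{}615 in replicate 2 (0.267 CPM) and blood{}5207 in replicate 4 (78.9 CPM).

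For 9 members the change between days 7 and 47 differed between the strains by the interaction test of edgeR, with values on the log2 scale given as the change in Hsp70-null minus that in w1118. The nested pair on 2R had the lowest p, with 1.93 for gypsy{}615 (adjusted p = 0.000144) and 1.61 for accord2{}1996 (0.000247). rover{}1275 had 1.85 (0.0484), INE-1{}5341 had 1.63 (0.0484), INE-1{}5275 in Idgf4 had 0.76 (0.0447), and the nested pair of invader2{}238 and H{}236 on X had 1.76 (0.0425) and 1.57 (0.0484). H{}3283, a TIR element in an intron of Stlk on 2R, had −1.93 (0.0480). TART-B{}1567 had −4.76 (0.0183), and −4.97 (0.0292) between days 7 and 23, values that depend on the prior count because the copy had no reads in w1118 at day 7.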

How the results depend on the processing

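Counts of members past the threshold moved by over 1.5 times under these settings. Requiring at least 10 counts in every library, which removes copies absent from a group, left 31, 22 and 21 calls between strains at days 7, 23 and 47, 20 in exercised and 21 in trained flies; for days 23 over 7, 47 over 23 and 47 over 7 it left 11, 5 and 36 in Hsp70-null and 10, 14 and 45 in w1118; 4 and 0 interactions were left for days 47 over 7 and 23 over 7. Fitting the compared groups alone gave 70 between strains at day 7, 14 in Hsp70-null for day 23 over 7, 21 and 14 in w1118 for days 23 over 7 and 47 over 23, and 4 and 0 interactions. DESeq2 gave 29 in Hsp70-null and 49 in w1118 for day 47 over 23 and 2 for exercise in w1118. Exercise in w1118 had 1 call with RLE scaling and without marker libraries. Without the 3 libraries with testis markers there were 16 in Hsp70-null for day 23 over 7 and 3 interactions, and without all 8 libraries with testis, accessory gland or eye markers, a setting added after seeing the data, 11, 15 and 54 in Hsp70-null and 2 and 0 interactions. Without a filter on low counts 3 interactions passed. The causes were not tested beyond what each setting removes by construction.

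Leaving out each pool in turn gave 87 to 116, 79 to 85 and 70 to 78 calls between strains at days 7, 23 and 47, 78 to 88 in exercised and 70 to 76 in trained flies, and, for the 3 age steps in the same order, 15 to 46, 5 to 12 and 61 to 82 in Hsp70-null and 23 to 28, 17 to 26 and 85 to 95 in w1118. For Hsp70-null at day 23 over 7 the pools that moved the count past 1.5 times were replicate 2 of day 7 and replicates 2 and 4 of day 23, and for day 47 over 23 they were replicate 3 of day 23 and replicate 4 of day 47 (5 calls each). Exercise gave 0 to 0 in Hsp70-null and 0 to 1 in w1118, training 0 in both, and the interactions 2 to 9 and 0 to 1. The number of copies read in 1 strain was 6 with a limit of 1 count and 26 with a limit of 10. Counting each nested set once, the summed level was 1011 and 1066 CPM at days 23 and 47, 939 CPM in exercised and 1062 CPM in trained flies of Hsp70-null, and 925 and 1011 CPM at days 23 and 47 and 928 CPM in trained flies of w1118.

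Of 82 results for named members, 1398 values under alternatives kept direction and side of the threshold, 31 lost the call, 8 gained it and 7 changed sign. Those that changed sign were strain differences that had not passed: leaving out pools in turn, blood{}5207 ranged from −0.054 to 0.19 at day 23 and from −0.025 to 0.044 at day 47, Rt1a{}5155 from −0.36 to 0.0092 at day 23 and INE-1{}6127 from −0.25 to 0.00074 at day 23, and blood{}5207 had −0.031 at day 47 without a filter.

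Replicate numbers are shared by the groups, but same-numbered pools did not deviate together (correlations −0.289 to 0.338), so they name pools only. A fit with the replicate number as a block gave 109, 91, 87, 92 and 80 calls between strains (days 7, 23, 47, exercised, trained), 38, 10 and 81 in Hsp70-null and 34, 24 and 109 in w1118 for the age steps, 0 for exercise and training, and 9 and 1 interactions.

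Depth limits the copies near 400 counts, which had about 10 counts per library, and thinning the deeper day 47 libraries to the median total of the others, a setting added after seeing the data, kept every count of calls within 1.5 times of its value.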
